A study of Mus musculus with 10 samples.

Results

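Cytokines and chemokines are small secreted proteins through which cells call in, activate or sustain other cells, and Ackr3 (also named Cxcr7) is the atypical chemokine receptor that binds Cxcl12 and removes it from the surroundings without signaling through G proteins. Expression was followed here for 10 genes: Ackr3, the chemokines Cxcl12, Ccl20, Ccl2, Cxcl1 and Cxcl2, and the cytokines Il23a, Il1a, Csf1 and Lif. They are 10 of the 17658 genes listed for one inhibitor and of the 16719 listed for the other, and each was found in both tables by its symbol. The 10 genes were selected on measured values, since their changes with the inhibitors were known from earlier results of the same libraries. Their levels and fold changes are therefore given as a description, with no p-value, and where a count says how many passed the limits used for all genes, that count describes the selection.

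The cells were ASZ001, a single murine basal cell carcinoma (BCC) line that is resistant to inhibitors of Smoothened, kept in low-serum medium for 24 h with an inhibitor or with its vehicle DMSO. In one experiment 3 cultures received 10 µM SB431542, an inhibitor of the TGFß type I receptor ALK5, and 3 received DMSO. In the other, 2 cultures received 20 µM T-5224, an inhibitor of AP-1, the transcription factor formed by Jun and Fos proteins, and 2 received DMSO. Poly(A) RNA was sequenced, and expression is given as RPKM, reads per kilobase of transcript per M mapped reads, with 32.0 to 51.3 M reads per library.

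In skin, chemokines made by keratinocytes set which leukocytes enter. Ccl20 draws Ccr6-bearing T and dendritic cells, Ccl2 draws monocytes, and Cxcl1 and Cxcl2 draw neutrophils through Cxcr2. Many of these genes have sites for NF-kB and AP-1 in front of their start sites and are transcribed within hours of a stimulus, and several of their mRNAs are short-lived.

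The 300 bases from 250 before to 50 after the start site were available from RefSeq (GRCm38.p6) for 8 of the 10 genes, and each had 1 exact match in NCBIM37, the assembly of mm9, whose positions are given. They were not available for Il23a and Ccl2, whose promoters were not searched. The promoters of the neutrophil chemokines and of Ccl20 are shown because the NF-kB motif was found in them, with that motif in capitals. Strands are those of the gene, and sequences read 5′ to 3′.
Cxcl1, chr5:91320021-91320320, plus strand: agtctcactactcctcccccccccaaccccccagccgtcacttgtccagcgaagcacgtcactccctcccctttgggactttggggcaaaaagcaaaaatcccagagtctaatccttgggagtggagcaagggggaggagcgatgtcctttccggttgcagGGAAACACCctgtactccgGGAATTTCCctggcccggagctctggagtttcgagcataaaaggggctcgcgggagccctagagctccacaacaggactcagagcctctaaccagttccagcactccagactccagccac
Cxcl2, chr5:91332675-91332974, plus strand: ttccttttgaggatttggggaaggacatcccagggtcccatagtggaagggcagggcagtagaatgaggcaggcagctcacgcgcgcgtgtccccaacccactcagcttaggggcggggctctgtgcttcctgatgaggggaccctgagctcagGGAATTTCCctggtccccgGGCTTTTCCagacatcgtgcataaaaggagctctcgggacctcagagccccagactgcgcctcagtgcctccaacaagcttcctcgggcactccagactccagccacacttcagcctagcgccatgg
Ccl20, chr1:83113091-83113390, plus strand: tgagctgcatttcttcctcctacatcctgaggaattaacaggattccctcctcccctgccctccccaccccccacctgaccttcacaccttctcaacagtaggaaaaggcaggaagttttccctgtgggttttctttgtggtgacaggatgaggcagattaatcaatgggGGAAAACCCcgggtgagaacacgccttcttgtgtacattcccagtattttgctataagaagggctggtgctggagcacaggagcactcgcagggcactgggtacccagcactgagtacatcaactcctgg

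The promoter of Lif is shown for its AP-1 motif, in capitals. That of Ackr3 is shown because Ackr3 had the largest drop of the 10 genes with each inhibitor, and none of the motifs searched was found in it, so it has no capitals.
Lif, chr11:4157321-4157620, plus strand: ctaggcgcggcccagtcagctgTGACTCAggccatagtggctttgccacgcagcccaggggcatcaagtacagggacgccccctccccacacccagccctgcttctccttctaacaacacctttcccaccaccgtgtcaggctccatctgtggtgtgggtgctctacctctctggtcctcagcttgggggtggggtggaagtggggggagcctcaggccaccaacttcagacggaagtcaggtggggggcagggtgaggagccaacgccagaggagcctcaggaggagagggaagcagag
Ackr3, chr1:92100305-92100604, plus strand: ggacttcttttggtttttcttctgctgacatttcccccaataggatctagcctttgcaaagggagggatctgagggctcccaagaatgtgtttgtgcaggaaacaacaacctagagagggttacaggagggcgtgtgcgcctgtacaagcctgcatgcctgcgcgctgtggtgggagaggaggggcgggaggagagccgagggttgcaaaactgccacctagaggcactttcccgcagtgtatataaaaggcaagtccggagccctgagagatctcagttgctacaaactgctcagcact

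Motifs were searched on both strands. The NF-kB motif GGNNTTTCC was in 4 of the 8 promoters, those of Ccl20, Csf1, Cxcl1 and Cxcl2, and in 5.82% of 32851 mouse promoters of the same length. Cxcl1 holds GGAATTTCC at position -70 from its start site and GGAAACACC at -89. Cxcl2, its neighbour 10756 bases away on chromosome 5, holds GGAATTTCC at -96 and GGCTTTTCC at -77. Ccl20 has GGAAAACCC at -80 and Csf1 has GGAAAGTCC at -154. The AP-1 motif TGACTCA or TGAGTCA was in 2 of the 8, at -228 in Lif and at -12 in Il1a, and in 5.2% of all promoters. The cAMP response element TGACGTCA (1.79% of promoters), the C/EBP-ATF motif TGATGNAA (3.97%) and the SMAD motif GTCTAGAC (0.213%) were in none of the 8. These matches are of letters in a short window, and binding was not measured in these libraries.

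Epithelial markers were abundant. Keratin genes Krt5 and Krt14 were at 3896 to 6087 RPKM in the DMSO libraries, and the leukocyte gene Ptprc (CD45) was at most at 0.012 RPKM in any library. Of 12 leukocyte markers, 9 were listed in the SB431542 experiment and 6 in the T-5224 experiment, and only Cd14 and Cd68 of these were above 1 RPKM. Their summed level was 9.5 to 12.5 RPKM with DMSO and 9.85 to 10.2 with SB431542. It was 19.3 to 21.5 with DMSO and 35.7 in both libraries with T-5224, where Cd68, a lysosomal glycoprotein gene, went from 17.6 to 33.0 RPKM. Epithelial markers moved with T-5224, their sum being 12100 to 12700 RPKM in its DMSO libraries and 1810 to 1870 in its treated libraries, and with SB431542 it was 6760 to 7230 against 9500 to 9680. Krt5 and Krt14 made up most of that sum. With T-5224, 7 of the 8 epithelial markers were lower at an adjusted p under 0.05 (limma), 4 of them more than 2-fold. Of all 10809 genes tested, 4260 were lower by the adjusted p, and 10.6% were lower by more than 2-fold as well. Among the 8 markers only Epcam went the other way with T-5224, from 70.7 to 124 RPKM (log2 fold change 0.81, limma adjusted p = 9e-08). With SB431542, 2 of the 8 were lower and 2 higher by the adjusted p, and 0 changed more than 2-fold. The lower ones were Krt5 and Krt14. The higher ones were Epcam, from 114 to 134 RPKM (0.23, adjusted p = 0.0146), and Krt15, from 24.5 to 34.9 RPKM (0.49, adjusted p = 0.0291). Of all 10842 genes tested with SB431542, 1085 were lower and 1107 higher by the adjusted p. More than 2-fold as well, 0.581% were lower and 0.231% higher. Of 6 endothelial markers, Pecam1 alone was above 1 RPKM, at 5.75 and 2.69 RPKM in the DMSO and SB431542 libraries (log2 fold change -0.97, adjusted p = 0.00103) and at 11.3 and 4.39 RPKM in the DMSO and T-5224 libraries (-1.27, adjusted p = 1.27e-07), and Tek stayed under 0.2 RPKM. Of 8 fibroblast markers, Dcn alone was above 1 RPKM, at 2.13 and 3.71 RPKM (0.68, adjusted p = 0.00178) and at 1.89 and 2.55 RPKM (0.35, adjusted p = 0.0146), and Col1a1, Col1a2 and Col3a1 stayed under 0.2 RPKM. Their part in the changes below was not tested, and in bulk RNA fewer cells of a type and less RNA per cell cannot be told apart. DMSO library 1 of the SB431542 experiment stood apart most, with the ribosomal RNA gene Rn45s at 770 RPKM against 1868 to 2229 in the other 5. Rn45s also differed between the T-5224 libraries, at 1862 and 5184 RPKM against 3401 and 3473 with DMSO. Values without 1 of these libraries are given where they move a call.

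Ackr3 and its ligand Cxcl12 both had lower mRNA with each inhibitor. Ackr3 (mm9, chromosome 1, 92100555 to 92113326, plus strand) was at 16.981, 15.06 and 17.93 RPKM in the 3 DMSO libraries and at 3.708, 2.987 and 3.384 RPKM with SB431542. The groups were far apart, the highest treated library lying below every control. The mean went from 16.7 ± 1.46 to 3.36 ± 0.361 RPKM (SD, n = 3), which is 4.96-fold lower, with a log2 fold change of -2.15 (SE 0.09) on the log2(RPKM + 0.5) scale used throughout. In the T-5224 experiment Ackr3 was at 46.163 and 48.192 RPKM with DMSO and at 0.265 and 0.296 RPKM with T-5224. It was thus among the well expressed genes of the control cells, above 90.9% of the genes listed, and nearly lost in both treated libraries. The means of 47.2 ± 1.43 and 0.28 ± 0.0219 RPKM (SD, n = 2) differed 168-fold, for a log2 fold change of -5.93 (SE 0.08).

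Cxcl12 (chromosome 6, 117118553 to 117131385, plus strand), the chemokine that Ackr3 clears and that signals through Cxcr4, was expressed at a low level. Its values were 1.314, 1.348 and 1.531 RPKM with DMSO and 1.044, 0.978 and 0.953 RPKM with SB431542, so that the groups did not overlap but lay close together. The means of 1.4 ± 0.117 and 0.992 ± 0.047 RPKM were 1.41-fold apart (log2 fold change -0.35, SE 0.09). With T-5224 it went from 2.414 and 2.303 RPKM to 0.061 and 0.054 RPKM, and almost no Cxcl12 was left in either library. This is a 41-fold difference of the means and a log2 fold change of -2.36 (SE 0.14). The added 0.5 RPKM holds the size of such changes down, and with 0.1 in its place the log2 fold change was -3.96. Cxcr4, the signaling receptor for Cxcl12, was at 0.106 RPKM or less in each of the 10 libraries. Of these receptor genes, only Ackr3 was above 1 RPKM, in the 8 libraries without T-5224.

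**Figure D1:**
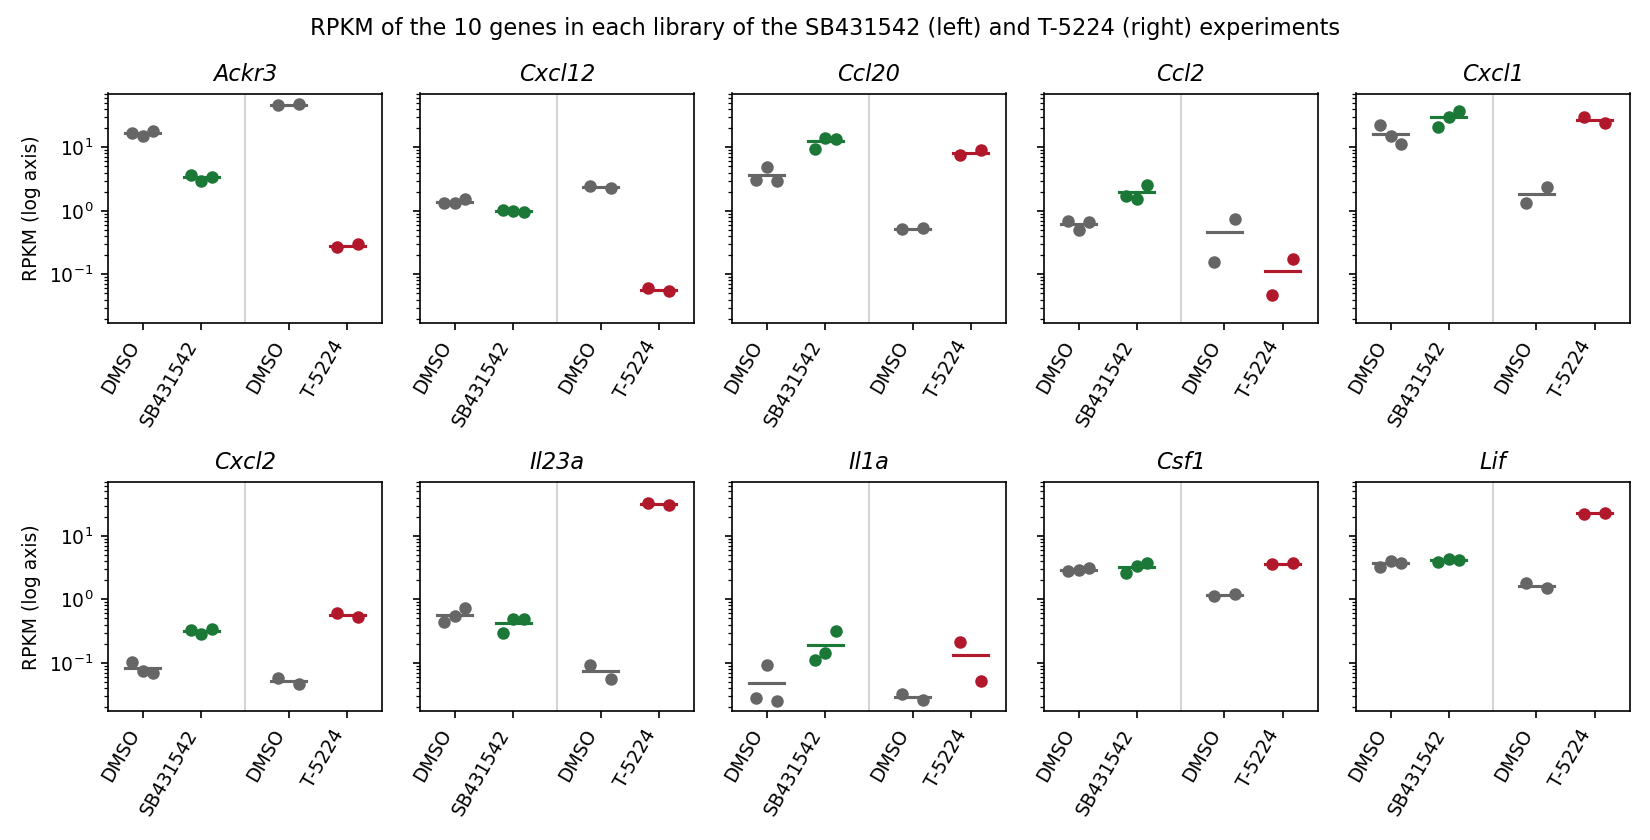
RPKM on a log axis of the 10 genes in each library (points) with the group mean (line), for SB431542 (green) and T-5224 (red), each beside the DMSO libraries (grey) of its own experiment. Ackr3 and Cxcl12 lie lower with each inhibitor, Il23a goes from 0.074 to 31.9 RPKM with T-5224, and the Ccl2 libraries of the T-5224 experiment overlap.

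Of the chemokines that attract leukocytes, Ccl20 (chromosome 1, 83113341 to 83115742, plus strand) was higher with both inhibitors. It was at 3.069, 4.84 and 2.997 RPKM with DMSO and at 9.362, 14.255 and 13.577 RPKM with SB431542. Even the lowest treated library was above the highest control, although the controls differed among themselves. The means of 3.64 ± 1.04 and 12.4 ± 2.65 RPKM differed 3.41-fold (log2 fold change 1.65, SE 0.21). In the T-5224 experiment Ccl20 was at 0.508 and 0.541 RPKM with DMSO and at 7.577 and 8.952 RPKM with T-5224. Both treated libraries were far above both controls, with a 15.8-fold difference of the means and a log2 fold change of 3.09 (SE 0.11). Its receptor Ccr6, found on the lymphocytes and dendritic cells that follow Ccl20, was at 0.582 RPKM or less in all libraries.

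Ccl2 (chromosome 11, 81849073 to 81850955, plus strand), the monocyte attractant, was scarce. It was at 0.683, 0.504 and 0.673 RPKM with DMSO and at 1.728, 1.545 and 2.553 RPKM with SB431542, and all treated libraries were above all controls. The difference of 3.13-fold (log2 fold change 1.11, SE 0.16) rested on about 20, 20 and 22 reads against 63, 52 and 101. The ratio of reads at equal depth was 3.23, with an exact 95% interval of 2.42 to 4.35 that covers counting error only. Without SB431542 library 3 the log2 fold change was 0.93. In the T-5224 experiment Ccl2 was at 0.155 and 0.756 RPKM with DMSO and at 0.048 and 0.175 RPKM with T-5224, so the groups overlapped and the controls differed most. These are 4 and 24 reads against 2 and 7, and the log2 fold change of -0.58 was -1.05 without DMSO library 1 and -0.11 without DMSO library 2. Ccr2, the receptor for Ccl2, did not exceed 0.129 RPKM in any library.

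The neutrophil chemokines Cxcl1 (chromosome 5, 91320267 to 91322141, plus strand) and Cxcl2 (chromosome 5, 91332897 to 91334935, plus strand) had control levels far apart. Cxcl1 was at 22.094, 15.015 and 11.069 RPKM with DMSO and at 21.15, 29.956 and 37.356 RPKM with SB431542. The groups overlapped, because DMSO library 1 was above the lowest treated library. The means of 16.1 ± 5.59 and 29.5 ± 8.11 RPKM gave a log2 fold change of 0.87 (SE 0.27), and of 1.13 without DMSO library 1. With T-5224 Cxcl1 went from 1.346 and 2.354 RPKM to 29.947 and 24.52 RPKM. There was no overlap, and the means differed 14.7-fold (log2 fold change 3.59, SE 0.17).

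Cxcl2 was at 0.102, 0.075 and 0.068 RPKM with DMSO and at 0.326, 0.287 and 0.335 RPKM with SB431542. All treated values were above all controls, at 4, 4 and 3 reads against 16, 13 and 18, which is 3.96-fold at equal depth (exact 95% counting interval 2.02 to 8.46). In the T-5224 experiment it went from 0.058 and 0.047 to 0.606 and 0.521 RPKM, on 2 and 2 reads against 34 and 28. That is 10.9-fold at equal depth (exact 95% counting interval 4.06 to 41.4), again without overlap. Although it lies next to Cxcl1 and shares its GGAATTTCC motif, Cxcl2 reached no more than 0.606 RPKM in any library, where Cxcl1 reached 37.356 RPKM. Cxcr2, the receptor of both, was at 1.266 to 1.988 RPKM in the SB431542 experiment, where it did not pass the test (log2 fold change 0.14, SE 0.14, limma adjusted p = 0.521), and was not listed in the T-5224 table.

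Among the cytokines, Il23a (chromosome 10, 127733196 to 127735140, minus strand) had the largest upward log2 fold change of the 10 genes, with T-5224, and overlapped its controls with SB431542. It encodes p19, which forms IL-23 only with the p40 subunit made from Il12b. Il23a was at 0.445, 0.552 and 0.724 RPKM with DMSO and at 0.292, 0.493 and 0.489 RPKM with SB431542. These values overlapped (log2 fold change -0.22), and the ratio of reads at equal depth was 0.739, with an exact 95% counting interval of 0.543 to 1. With T-5224 Il23a went from 0.092 and 0.056 RPKM to 32.833 and 30.992 RPKM. It was near the limit of detection in the controls, at 4 and 3 reads, and at 2297 and 2093 reads in the treated libraries. The means differed 431-fold and the log2 fold change was 5.82 (SE 0.09), with 4.94 for an added 1 RPKM and 7.53 for an added 0.1 RPKM.

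The partner subunit gene Il12b stayed at 0.031 RPKM or less in all libraries, those with high Il23a included. Of the receptor subunits of IL-23, Il12rb1 was at 0.135 RPKM or less throughout. Il23r was at 2.574, 3.371 and 2.792 RPKM with DMSO and at 2.077, 1.904 and 2.357 RPKM with SB431542, which did not pass the test (log2 fold change -0.38, SE 0.11, limma adjusted p = 0.0507). In the T-5224 experiment it was at 1.764 and 1.529 RPKM with DMSO and at 0.233 and 0.219 RPKM with T-5224, too low for the test.

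Il1a (chromosome 2, 129125346 to 129135708, minus strand) encodes interleukin-1 alpha, an alarm cytokine that keratinocytes store and release on injury. It was among the least expressed of the 10 genes, at 0.028, 0.093 and 0.025 RPKM with DMSO and at 0.112, 0.145 and 0.316 RPKM with SB431542. The treated libraries were all higher, on 2, 9 and 2 reads against 10, 12 and 31 (3.77-fold at equal depth, exact 95% counting interval 2.03 to 7.55). With T-5224 it went from 0.032 and 0.026 to 0.215 and 0.051 RPKM, on 2 and 2 reads against 22 and 5. The 2 treated libraries differed from each other by more than the lower one differed from the controls. Il1b was at 0.043 RPKM or less in all libraries. The receptor gene Il1r1 went from 2.87 to 1.46 RPKM with T-5224 (log2 fold change -0.78, SE 0.11, limma adjusted p = 6.22e-05), and the antagonist Il1rn, at 4.25 and 4.64 RPKM, did not pass the test (adjusted p = 0.266).

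Csf1 (chromosome 3, 107543966 to 107563387, minus strand), the growth factor of macrophages, was at 2.81, 2.852 and 3.077 RPKM with DMSO and at 2.584, 3.388 and 3.711 RPKM with SB431542. The groups overlapped, with treated libraries both below and above the controls (log2 fold change 0.12, SE 0.12). With T-5224 it went from 1.142 and 1.231 RPKM to 3.559 and 3.736 RPKM, without overlap, a 3.07-fold difference of the means (log2 fold change 1.30, SE 0.11). Il34, the second ligand of the same receptor, was at 1.323 and 0.568 RPKM with DMSO and at 3.613 and 4.041 RPKM with T-5224 (log2 fold change 1.63, SE 0.20, limma adjusted p = 1.44e-05). Its DMSO mean was 0.946 RPKM, so it entered the test only through its treated libraries, and that p is no support for a rise. With SB431542 Il34 went from 2.22 to 3.34 RPKM (log2 fold change 0.51, SE 0.14, limma adjusted p = 0.0378), under the limit of the call. The receptor gene Csf1r had 0.01 RPKM in 1 DMSO library of the SB431542 experiment, was listed at 0 in the other 5 and was not listed in the T-5224 table.

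Lif (chromosome 11, 4157560 to 4172517, plus strand), a cytokine of the IL-6 family that signals through Lifr and Il6st, was at 3.274, 4.013 and 3.724 RPKM with DMSO and at 3.881, 4.263 and 4.179 RPKM with SB431542. The lowest treated library was below the highest control (log2 fold change 0.15, SE 0.09). With T-5224 Lif went from 1.779 and 1.492 RPKM to 22.144 and 22.94 RPKM. Both treated libraries agreed closely, and the means were 13.8-fold apart (log2 fold change 3.43, SE 0.09). Its receptor gene Lifr moved the other way, from 11.631 and 11.126 RPKM to 3.18 and 2.641 RPKM (log2 fold change -1.80, SE 0.10, limma adjusted p = 1.13e-08). Il6st (gp130), the shared signaling subunit, was at 23.6 RPKM with DMSO and 33.1 RPKM with T-5224 (log2 fold change 0.48, SE 0.06, adjusted p = 1.33e-05). With SB431542 neither Lifr (adjusted p = 0.207) nor Il6st (adjusted p = 0.559) passed the test.

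**Figure D2:**
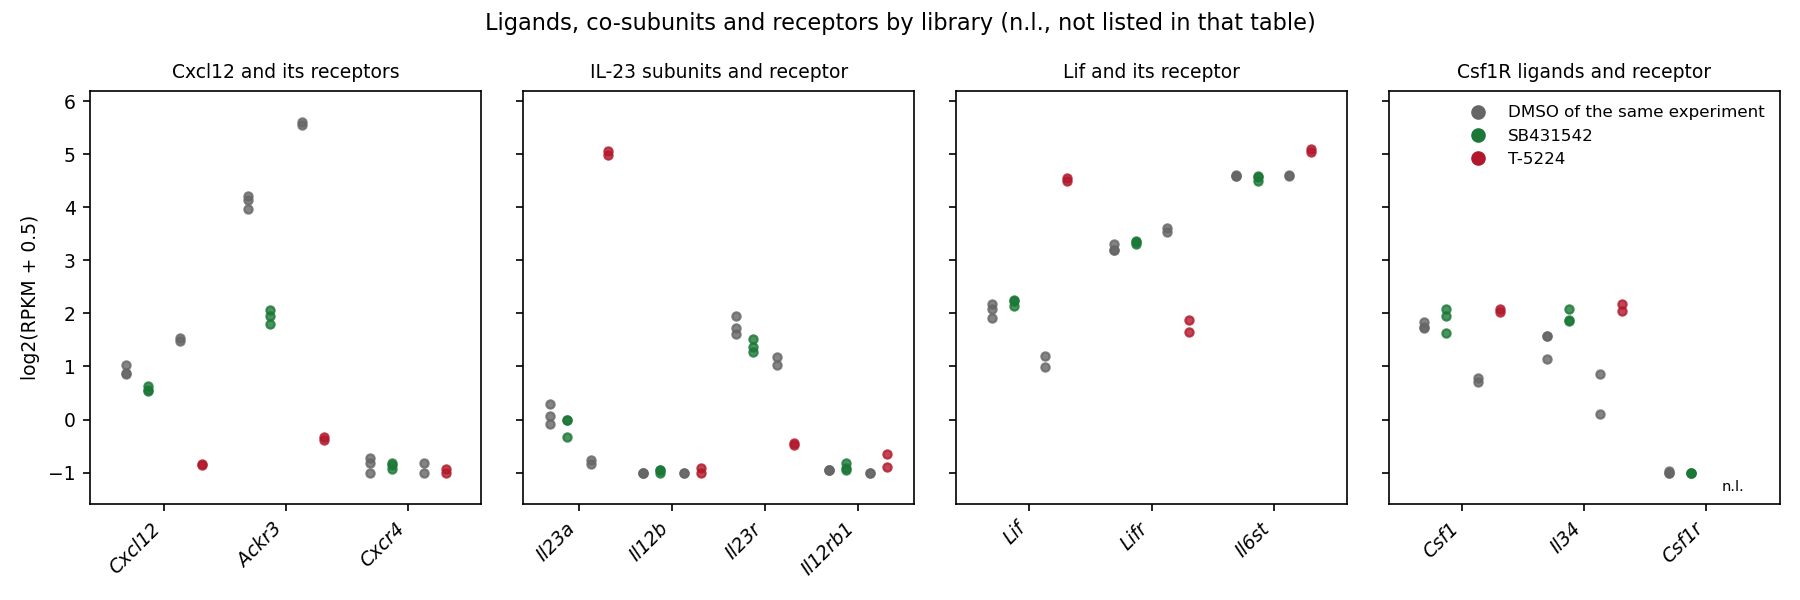
log2(RPKM + 0.5) by library of ligands, co-subunits and receptors, for DMSO (grey), SB431542 (green) and T-5224 (red); n.l. marks a gene not listed in that table. Il23a lay above its DMSO libraries with T-5224 while Il12b stayed at the floor, and Lif was higher and Lifr lower. Cxcr4, and Csf1r where it was listed, stayed near the floor.

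Called genes were those more than 2-fold changed at an adjusted p under 0.05 (limma, Benjamini-Hochberg), among genes with a mean of at least 1 RPKM. With SB431542, 7 of the 10 genes passed that filter, Cxcl2, Il23a and Il1a being too low. As the selection fixed, Ackr3 lay past the limits downward, as did 0.581% of the 10842 genes tested, and Ccl20 and Ccl2 lay past them upward, as did 0.231%. By their libraries, 2 of the 10 genes had all treated values below all DMSO values, as did 16.2% of all genes listed, 4 had all of them above, as did 16.6%, and 4 overlapped. With T-5224, 7 passed, without Ccl2, Cxcl2 and Il1a. Ackr3 and Cxcl12 lay past the limits downward, as did 10.6% of 10809 genes, and Ccl20, Cxcl1, Il23a, Csf1 and Lif upward, as did 10.4%. There 2 of the 10 had all treated values below all DMSO values, as did 39% of all genes listed, 7 had all of them above, as did 36.5%, and Ccl2 overlapped. Since the genes were selected on these comparisons, nothing is read from their shares against the background. Il23a and Ccl20 in the T-5224 experiment passed the filter only through their treated libraries, and Ackr3 and Cxcl12 only through their controls. Ccl2 passed it with SB431542 only through its treated libraries.

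**Figure D3:**
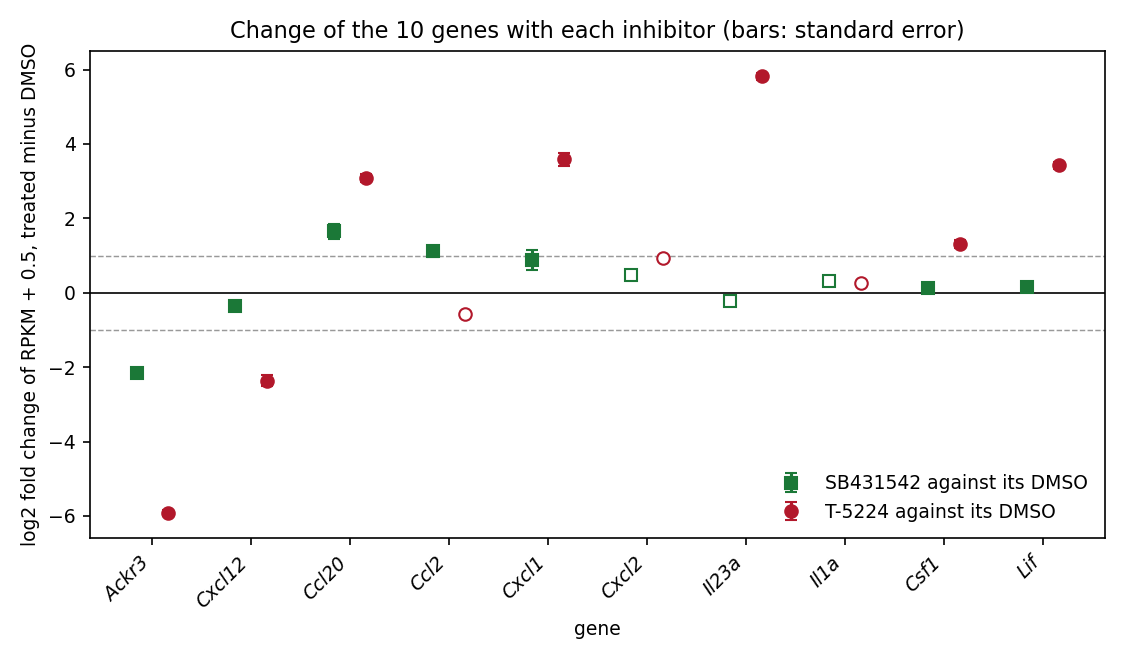
log2 fold change of RPKM + 0.5 of the 10 genes with SB431542 (green squares) and T-5224 (red circles), each against its own DMSO libraries, with bars of 1 standard error; open symbols were under the filter on low values and have no error, and dashed lines mark a 2-fold change. Ackr3 is lowest with both, at -2.15 and -5.93, and Il23a is highest with T-5224, at 5.82.

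The 2 experiments have separate controls and were normalized separately. Set side by side without a test, Ackr3 and Cxcl12 were lower and Ccl20 was higher with each inhibitor, all without overlap. Cxcl2 and Il1a were also higher in every treated library of both, at few reads. Cxcl1, Csf1, Lif and Il23a overlapped with SB431542 and not with T-5224. The DMSO levels themselves were unlike in the 2 tables, Ackr3 being at 16.7 and 47.2 RPKM, Cxcl1 at 16.1 and 1.85 RPKM and Ccl20 at 3.64 and 0.524 RPKM. Doses and targets differ too, so the sizes of the changes with the inhibitors were not compared.

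The wider family of chemokines, interleukins, growth factors, TNF ligands and their receptors was read from 8 lists of textbook members, with 167 genes beside the 10. With SB431542, 43 of the 113 listed were tested, 0 were called down (0.581% of all genes tested) and 1 was called up (0.231%), too few to read a share from. The gene was Tnfsf18, the T-cell ligand GITRL, at 0.491, 0.49 and 0.535 RPKM with DMSO and at 1.344, 1.734 and 1.918 RPKM with SB431542 (log2 fold change 1.10, SE 0.12, adjusted p = 0.00165). It entered the test only through its treated libraries. Leaving the fold change open, limma found 3 lower and 7 higher by the adjusted p, among the latter Kitl, the ligand of Kit, at 30.1 and 40.3 RPKM (log2 fold change 0.41, SE 0.07, adjusted p = 0.0103). At an unadjusted p under 0.05 these counts were 6 and 8. Of all 10842 genes tested, 1085 were lower and 1107 higher by the adjusted p with any fold change. The median log2 fold change of the 43 was 0.02, beside 0.01 for all genes tested. The most abundant chemokine gene, Cxcl16, was at 35.8 and 33.9 RPKM and did not pass the test (adjusted p = 0.329).

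With T-5224, 41 of the 110 listed genes of the family were tested, and 6 (14.6%) were called down and 12 (29.3%) up, where 10.6% and 10.4% of all genes tested were. The difference between these shares was not tested. Their median log2 fold change was 0.29, beside 0.00 for all genes tested. Among the 12, 5 (Ccl17, Flt3l, Il34, Il36g and Tnf) had a DMSO mean under 1 RPKM and could enter the test only through their treated libraries, and 7 were above 1 RPKM in both groups. Among the 6, Il17rb and Il6ra were under 1 RPKM with T-5224 and could enter only through their DMSO libraries.

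Chemokines for T cells and other leukocytes were among those that rose with T-5224. Ccl5, an attractant of T cells, went from 0.824 and 1.774 RPKM to 5.11 and 5.414 RPKM (log2 fold change 1.73, SE 0.20, limma adjusted p = 7.08e-06). Cxcl10, an interferon-induced ligand of Cxcr3, went from 1.076 and 1.752 RPKM to 5.493 and 6.361 RPKM (log2 fold change 1.77, SE 0.15, adjusted p = 7.2e-07). Ccl17, a ligand of Ccr4, went from 0.365 and 0.099 RPKM to 2.565 and 2.994 RPKM (log2 fold change 2.18, SE 0.18, adjusted p = 3.97e-07). Ccl17 entered the test only through its treated libraries, so its p-value is no support for a rise. The membrane-bound chemokines Cxcl16 (44.8 to 76.3 RPKM, log2 fold change 0.76, SE 0.06, adjusted p = 4.15e-07) and Cx3cl1 (12.8 to 22.4 RPKM, log2 fold change 0.78, SE 0.07, adjusted p = 6.07e-07) were higher by less than 2-fold. Cxcl14, a chemokine made constantly by normal epithelium, fell from 14.335 and 16.323 RPKM to 2.733 and 2.591 RPKM (log2 fold change -2.32, SE 0.09, adjusted p = 7.56e-10). With SB431542 Cxcl14 was higher, at 11.5 and 15 RPKM (log2 fold change 0.36, SE 0.06, limma adjusted p = 0.00707), under the limit of the call.

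Among cytokines, Il15, which sustains natural killer and memory T cells, rose with T-5224 from 2.007 and 2.114 RPKM to 8.65 and 8.513 RPKM (log2 fold change 1.83, SE 0.09, limma adjusted p = 5.71e-09). Clcf1, of the IL-6 family like Lif, rose 4.84-fold (log2 fold change 1.89, adjusted p = 2.3e-08), Flt3l, a growth factor for dendritic cells, rose 6.92-fold (1.86, adjusted p = 2.82e-07) and Tnf rose 9.79-fold (2.06, adjusted p = 1.96e-07). Tnf stayed low, at 2.949 and 2.496 RPKM with T-5224. Flt3l and Tnf had DMSO means of 0.394 and 0.278 RPKM. They entered the test only through their treated libraries, so their p-values are no support for a rise. Il36g, an epidermal cytokine of the IL-1 family, was listed at 0 in both DMSO libraries and at 2.4 and 2.103 RPKM with T-5224 (adjusted p = 2.89e-08), so that no fold is given. It too entered the test only through its treated libraries, so that p is no support for a rise. The gene was not silent in all controls, since vehicle cultures of the SB431542 experiment had 1.684, 2.254 and 2.45 RPKM of Il36g. The T-5224 values were thus near a level also seen without inhibitor. Why the controls of the 2 experiments differed was not tested. Il18, also of the IL-1 family, fell with T-5224 from 6.368 and 5.542 RPKM to 2.21 and 2.679 RPKM (log2 fold change -1.13, SE 0.11, adjusted p = 2.04e-06).

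Receptor genes moved in both directions with T-5224. Of 21 cytokine receptor genes tested, 4 were called down and 3 up, with a median log2 fold change of -0.05. Of all genes tested, 10.6% were called down and 10.4% up, and the receptors were not tested against these shares. Beside Lifr, the genes for the IL-6 receptor Il6ra (2.84 to 0.611 RPKM), Il17rb (2.41 to 0.573 RPKM) and Il17re (25.7 to 12.1 RPKM) fell, with log2 fold changes of -1.59, -1.44 and -1.06 (limma adjusted p = 5.11e-07, 1.18e-06 and 3.48e-08). Il6ra and Il17rb entered the test only through their DMSO libraries, so their p-values are no support for a fall. Il17ra, the shared subunit of the IL-17 receptors, rose from 7.6 to 17.3 RPKM, Csf2ra from 2.27 to 5.5 RPKM and the TSLP receptor Crlf2 from 10.5 to 23.8 RPKM, with log2 fold changes of 1.14, 1.11 and 1.14 (adjusted p = 4.39e-08, 1.22e-06 and 2.01e-08). Chemokine receptor genes other than Ackr3 were low, and 0 of the 14 listed in the T-5224 table reached a mean of 1 RPKM.

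**Figure D4:**
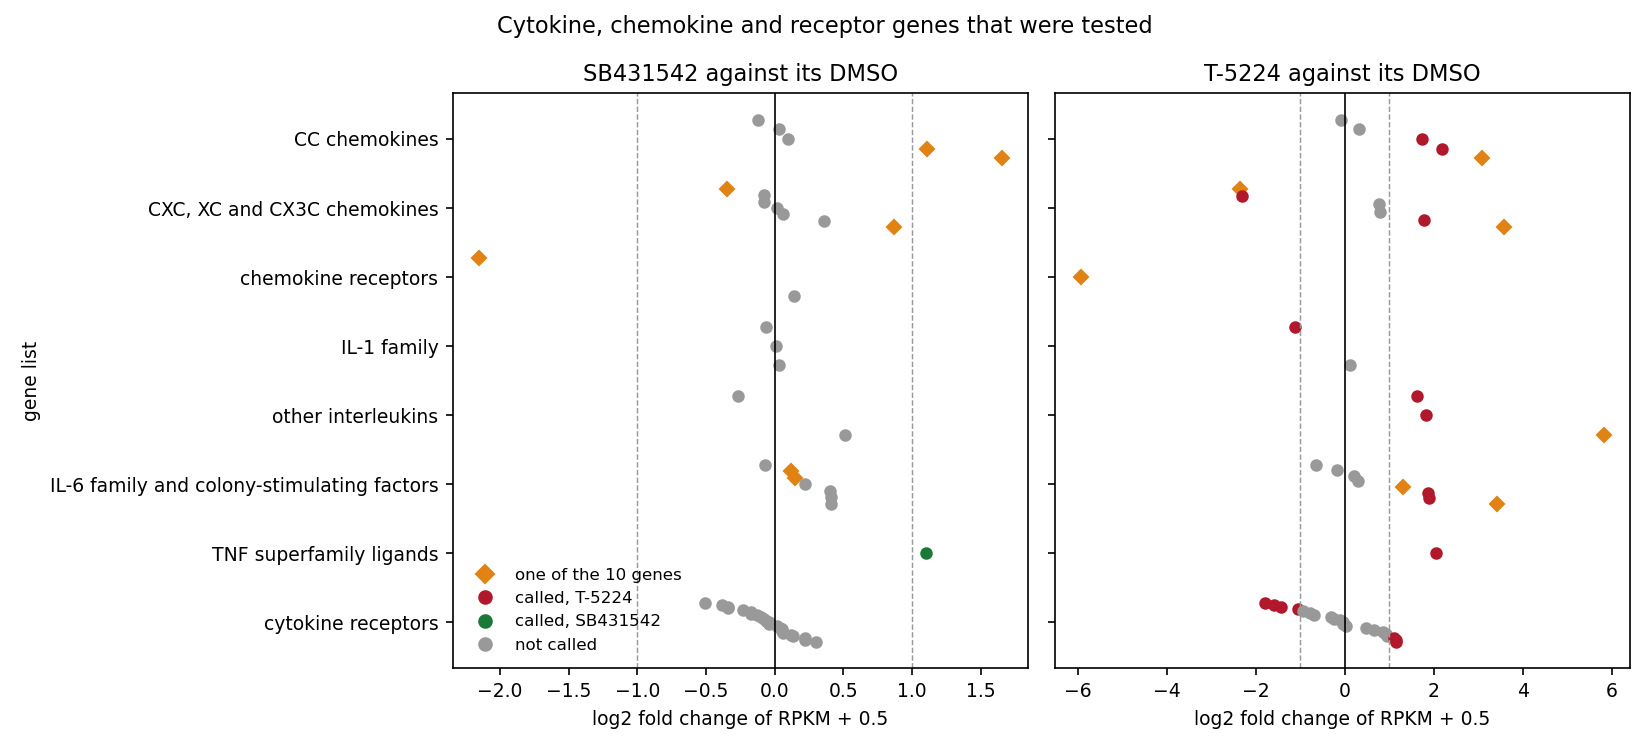
log2 fold change of RPKM + 0.5 of the genes tested in the 8 family lists with SB431542 (left) and T-5224 (right, wider axis); diamonds are the 10 genes described, colored circles are other called genes and grey circles are genes not called. Il36g, listed at 0 in both controls of T-5224, is left out, and the left panel shows 1 called circle, Tnfsf18, against 17 on the right.

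The genes that flank the 10 on the chromosomes were read in a comparison added after the values of the 10 were seen. On each side this was the nearest protein-coding gene listed for either inhibitor. Genes not listed were passed over, so a closer gene can be missing. Of 18 distinct flanking genes 8 were tested in each experiment, 0 were called with SB431542 (limma) and 1 was called with T-5224. Of all genes tested, 0.581% were called down and 0.231% up with SB431542, and 10.6% and 10.4% with T-5224. At an unadjusted p under 0.05 and with any fold change, 1 flanking gene was lower with SB431542, Stat2 beside Il23a (7.91 to 5.5 RPKM, log2 fold change -0.48, SE 0.13, limma adjusted p = 0.037), and 3 were lower and 4 higher with T-5224. With any fold change and an adjusted p under 0.05, 4260 of all 10809 genes tested were lower and 4356 higher with T-5224. With SB431542 these were 1085 and 1107 of 10842, and nothing is read from the flanking counts beside them. The gene called with T-5224 was Ckap2l, 2398 bases from Il1a, a mitotic spindle gene, at 7.1 and 16.8 RPKM (log2 fold change 1.19, SE 0.08, limma adjusted p = 1.22e-07). On the sides of Il23a, Stat2, 3291 bases away, was at 7.79 RPKM with DMSO and 4.34 RPKM with T-5224 (log2 fold change -0.77, SE 0.10, adjusted p = 1.73e-05), opposite to Il23a, and Pan2, 5251 bases away, did not pass the test (log2 fold change 0.19, SE 0.09, adjusted p = 0.0647). Zfp637, 659813 bases from Cxcl12, was lower like Cxcl12 with T-5224 (51.3 to 27.9 RPKM, log2 fold change -0.87, SE 0.06, adjusted p = 6.98e-08). Ahcyl1, 44488 bases from Csf1, was higher like Csf1 (26.6 to 48.2 RPKM, log2 fold change 0.85, SE 0.06, adjusted p = 2.43e-07). Mthfd2l, 25287 bases from Cxcl2, was higher like Cxcl2 (4.15 to 5.06 RPKM, log2 fold change 0.25, SE 0.09, adjusted p = 0.0255). Gatsl3, 35148 bases from Lif, was lower, opposite to Lif (8.76 to 6.11 RPKM, log2 fold change -0.49, SE 0.08, adjusted p = 0.000138). Cops8, the nearest listed gene at higher coordinates from Ackr3, 386674 bases away, was higher with T-5224, opposite to Ackr3. It was at 41.3 RPKM with DMSO and 49.8 RPKM with T-5224 (log2 fold change 0.27, SE 0.05, adjusted p = 0.000778). Cxcl3, a paralog of Cxcl1, was the nearest listed gene at lower coordinates from it, 103155 bases away. It had DMSO means of 0.154 RPKM and 0, and T-5224 libraries with a mean of 0.039 RPKM.

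Genes with the most similar pattern were sought by the Euclidean distance over the 10 libraries of log2(RPKM + 0.5), each library taken relative to the DMSO mean of its own table, among 10462 genes tested in both tables. Nearest to Ackr3 were Adamtsl4 (distance 2.24), Fam180a (2.27) and Thbs1 (2.97), where the median gene was at 9.20. Thbs1, which encodes thrombospondin 1, had log2 fold changes of -1.56 with SB431542 and -3.98 with T-5224. Nearest to Cxcl12 were Sipa1l2 (0.23), Myom2 (0.24) and St6galnac6 (0.28), with a median of 3.42. Nearest to Ccl20 were Etv4 (0.73), Dusp6 (1.15) and Phlda2 (1.23), with a median of 5.28, and Etv4, an ETS transcription factor, had log2 fold changes of 1.93 and 2.94. Nearest to Il23a were Atf3 (0.99), Ptgs2 (1.17) and Procr (1.31), with a median of 8.26. The transcription factor gene Atf3 went from 2.25 to 101 RPKM and Ptgs2, which encodes cyclooxygenase 2, from 5.56 to 208 RPKM with T-5224, whereas their log2 fold changes with SB431542 were -0.11 and -0.05. These distances are a description of the same libraries that were used to select the 4 genes.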

How the data were processed

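RNA of ASZ001 cells (TruSeq Stranded mRNA, HiSeq2000) was aligned by the authors with TopHat to mm9, and the deposited RPKM were made by the authors with HOMER's analyzeRepeats.pl, 1 table per experiment. The authors' own test was DESeq2 on counts, which were not analysed here. The 10 genes and the gene lists were chosen with earlier results of these data known. The genes named beside the 10 are every called family gene, up to 3 highest DMSO means of each list, partners of the 10 and the 3 nearest patterns of 4 genes. Not every gene that this rule allows is written out.

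Dropped were rows in which a date stood in place of the gene symbol, 22 of 17680 and 23 of 16742. Genes with a mean of at least 1 RPKM were tested with limma 3.58.1 (R 4.3.3) on log2(RPKM + 0.5), two-sided, within each table, with empirical Bayes moderation that follows the mean-variance trend, and p-values were adjusted over all genes tested (Benjamini-Hochberg). A call needed a log2 fold change beyond 1 and an adjusted p under 0.05. The libraries are called biological replicates, and how the cultures were set up is not stated, so a p-value measures the spread between these libraries. The DMSO columns of the T-5224 table are numbered 1 and 2, and the labels number those samples 4 and 5 of the series. These columns were used as the DMSO group without a sample of their own.

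Library depth, 32.0 to 51.3 M reads, was recovered from RPKM of genes shorter than 250 bases, of which 99.1% to 100.0% lay within 0.05 of a whole read. Reads of scarce genes follow from the depth and from a transcript length within 3% of an annotated one. That length was chosen to bring the reads nearest to whole numbers. The intervals of these reads are exact at 95% and cover counting error only. The fit was tested on simulated data. Alternatives were the pseudocount, the filter, the fold limit, the normalization, the trend, the replicate block and each library left out. Gene positions were taken from GENCODE for NCBIM37, in which Ackr3 is named Cxcr7.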

Additional observations from a re-analysis of the deposited data

How the results depend on the processing

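All 254 values of the 10 genes under the alternatives kept their direction, and 227 moved by less than the spread between replicates. The filter, the trend and the replicate block leave the fold change of a gene as it was by construction. Part of these values therefore could not move, and the 10 genes were selected on these comparisons. Without the fold limit there were 1085 lower and 1107 higher genes with SB431542 (family 3 and 7), and 4260 and 4356 with T-5224 (family 11 and 22). With SB431542, 38 genes were up at a pseudocount of 0.1 and 12 at 1, where 0 family genes were up. At a mean of at least 5 RPKM, 41 were down and 10 up with SB431542, with 0 family genes up, and 742 were down with T-5224, with 3 family genes down and 3 up, since fewer genes were tested. Apart from these constructions the cause was not tested. The count of 0 family genes down with SB431542 (limma) was also 0 at an unadjusted p under 0.05 with the same limit on the fold change.

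Leaving out 1 library gave 55 to 77 genes down and 20 to 31 up with SB431542, and 1102 to 1179 down and 1085 to 1179 up with T-5224, where a lone library is assumed to vary like the others. Family counts were 0 down and 1 up with SB431542, and 6 down and 12 to 13 up with T-5224. The call of Ccl2 with SB431542 was lost without SB431542 library 3 (0.93) and at a pseudocount of 1 (0.85), and Cxcl1 gained one without DMSO library 1 (1.13).

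The replicate numbers of the SB431542 experiment did not pair the samples (same-number correlations -0.148, 0.151 and -0.095), and with a replicate block 71 genes were down and 25 up, with 0 and 1 of the family. In the T-5224 experiment the sample labels share no numbers, and the correlation of columns numbered alike was 0.059. With 2 libraries per group that value cannot show whether the cultures were paired. A replicate block by column number, added after the data were seen, gave 1144 down and 1121 up, with 6 and 12 of the family. Depth limits Ccl2, Cxcl2 and Il1a, and Il23a in DMSO, where a few reads carry the values.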
